A study of Mus musculus with 2 samples.

Results

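The testis-specific serine kinases (TSSKs) are a small family of protein kinases made almost only in male germ cells after meiosis, and Tsks encodes a protein that TSSK1 and TSSK2 bind and phosphorylate. The genes described here are Tssk1, Tssk2, Tssk3, Tssk4, Tssk5, Tssk6 and Tsks, taken by symbol from a table of gene expression values. All 7 were present, out of 23234 genes in the table, and all 7 had a mean FPKM of 1 or more, the level from which a gene is called expressed here. FPKM scales the fragments of a gene to the length of its transcript and to all mapped fragments.

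Round spermatids of the C57BL/6 strain were profiled by RNA-seq, with 1 wild-type library and 1 labelled Epc-dKO, whose donors were deficient for Epc1 as well as Epc2. Both encode subunits of the TIP60 (NuA4) complex, which acetylates histones, and the comparison asked how expression in these cells differs without them. The sources used here do not state the animals' age, the number pooled or how the deletion was driven. With 1 library per genotype no difference below has a replicate check, no p-value is given, and the read depth behind the values is unknown.

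Round spermatids are haploid cells that have finished meiosis and not yet elongated. TSSKs belong to the calcium/calmodulin-dependent kinase group, and are related to the AMP-activated kinase family. In mice, males lacking TSSK1 and TSSK2 together, or TSSK6 alone, are infertile, and TSSK6 is needed for normal DNA condensation in the sperm head. TSKS lies in the chromatoid body and related granules of spermatids, and binds the phosphatase subunit encoded by Ppp1cc.

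The gene-level values of Epc1 and Epc2 did not bear out the genotype label, and such values can include exons outside a deleted part. Epc1 had an FPKM of 11.4 in wild type against 13.6 in the library labelled Epc-dKO, and Epc2 had 7.12 and 10.5. Neither was lower in the library labelled Epc-dKO, and the reason was not tested. The round spermatid markers fixed for this check were all expressed. These 6 genes, among them Acrv1 and Acr of the acrosome, summed to an FPKM of 324 in wild type against 313 in the library labelled Epc-dKO. The 6 spermatocyte markers had a larger sum, of 706 against 552, of which Hspa2 alone, which spermatids also express, made up 579 and 447. Marker sums of spermatogonia and somatic cells were smaller, and in each the library labelled Epc-dKO had the lower sum. The 8 spermatogonial markers summed to 32.3 and 14.7, the 5 Sertoli markers found to 9.85 and 6.24, the 5 Leydig markers to 29.5 and 22.0, the 2 peritubular markers to 9.08 and 5.24, and the 4 blood and endothelial markers to 3.32 and 2.62, with Hbb-b1 listed at 0 in both. Clu alone made up 8.29 and 5.03 of the Sertoli sums, and Insl3 14.9 and 6.79 of the Leydig sums. Of the 5 Leydig markers, 2 were higher and 3 lower in the library labelled Epc-dKO. Markers of elongating spermatids went the other way and are given beside Tssk6.

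Tssk1 and Tssk2 are neighbours on the plus strand of chromosome 16, each with 1 exon, and their upstream sequences are shown because both genes stayed close to their wild-type level. That of Tssk6, on the plus strand of chromosome 8, is shown because this gene did not. The 250 bases before the start site are from RefSeq (GRCm38.p6, a later build than the mm9 named for the expression values), 5′ to 3′. Capitals in Tssk1 and Tssk2 mark exact runs of 8 or more bases common to the pair, and in Tssk6 the letters TGACG, the half-site of the cAMP response element.
Tssk1, chr16:17893953-17894202, plus strand: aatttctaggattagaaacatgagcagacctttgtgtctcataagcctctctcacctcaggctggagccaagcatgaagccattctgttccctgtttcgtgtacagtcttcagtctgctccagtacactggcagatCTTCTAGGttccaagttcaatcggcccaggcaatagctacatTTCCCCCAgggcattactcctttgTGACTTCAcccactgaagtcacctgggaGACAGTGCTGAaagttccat
Tssk2, chr16:17898387-17898636, plus strand: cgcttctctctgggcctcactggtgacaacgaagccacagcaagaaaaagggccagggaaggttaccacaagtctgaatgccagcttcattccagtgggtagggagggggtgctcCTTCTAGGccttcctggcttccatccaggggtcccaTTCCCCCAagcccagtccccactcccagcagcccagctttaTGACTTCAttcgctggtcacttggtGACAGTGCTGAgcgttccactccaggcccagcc
Tssk6, chr8:69901934-69902183, plus strand: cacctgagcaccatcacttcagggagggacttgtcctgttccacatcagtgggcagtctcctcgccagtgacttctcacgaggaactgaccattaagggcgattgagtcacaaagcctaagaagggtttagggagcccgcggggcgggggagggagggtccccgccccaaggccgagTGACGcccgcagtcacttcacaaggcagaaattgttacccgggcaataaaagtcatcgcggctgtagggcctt
The shared runs cover 35 of the 250 bases in each of the pair and stand in the same order in both. The longest is 11 bases, against 7 to 10 for the other pairs among the 6 members with an upstream entry, which Tssk5 lacks. TGACG, read on both strands, lay in 1 of these 6 sequences, that of Tssk6, where it begins at position -73 on the plus strand. Of 27025 RefSeq genes, 17.9% held it in the same window, so 1 of 6 is near the background and says nothing particular of Tssk6. Its palindromic full form TGACGTCA, which contains it, lay in 0 of the 6 and in 1.62% of all genes, and the TATA box letters TATAAA, on both strands, in 0 of the 6 and in 13.0%. A match is a description of letters and not of a bound site.

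The kinases Tssk1 and Tssk4 were the most abundant members, and neither differed between the libraries by more than a few percent. Tssk1 had an FPKM of 90.0 in wild type against 91.6 in the library labelled Epc-dKO. Tssk4, whose product phosphorylates the outer dense fibre protein ODF2, had 84.6 and 88.5. Together they made up 52.0% of the summed FPKM of the 7 genes in wild type, and 52.1% in the library labelled Epc-dKO. Of the genes in the table, 98.3% had a lower FPKM than Tssk1 in each library. Differences between the libraries are given as the log2 ratio of FPKM + 1, library labelled Epc-dKO over wild type, and the words rose and fell are kept for genes that differed at least 2-fold on it. This scale understates the change of low genes. Tssk1 had a log2 ratio of 0.02 and Tssk4 had 0.06, both within 2-fold.

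Tssk2, the partner of Tssk1, had an FPKM of 59.1 in wild type against 57.8 in the library labelled Epc-dKO, with -0.03 as its log2 ratio. The level of Tssk1 was 1.52 times that of Tssk2 in wild type and 1.58 times in the other. Both values rest partly on shared sequence. Over their coding sequences in GENCODE M21, identical aligned bases came to 79.2% of the shorter one, where the other pairs of members, unrelated Tsks included, gave 52.1% to 64.1%. Of 1046 distinct 50-base stretches of the Tssk1 coding sequence, 125 also occur in Tssk2, so fragments from these stretches cannot be assigned to one of the pair with certainty. The level of Tssk1 also depends on its gene model, since its transcript is 3700 nt long in GENCODE M21 while the whole gene spans 1451 nt in RefSeq, and the sources used here do not name the authors' annotation. In the GENCODE M21 model, 63 of the 3700 bases overlap exons of Dgcr2 on the opposite strand. Dgcr2 had an FPKM of 24.3 in wild type against 17.3 in the library labelled Epc-dKO.

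Tsks, the gene of the kinase substrate, stood at an FPKM of 50.9 in wild type against 56.7 in the library labelled Epc-dKO. Its log2 ratio of 0.15 was the largest in size among the 6 members within 2-fold. Relative to the sum of Tssk1 and Tssk2, the kinases of the same complex, its FPKM was 0.341 in wild type against 0.380 in the other library. Tssk3, a kinase gene with 2 exons on chromosome 4, had 39.9 and 35.9, a log2 ratio of -0.15. Tssk5, on chromosome 15, was below these genes at 8.81 and 8.33, a log2 ratio of -0.07. No 50-base stretch of the coding sequences of Tssk3, Tssk4, Tssk5 or Tsks occurred in a transcript of another gene.

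**Figure D1:**
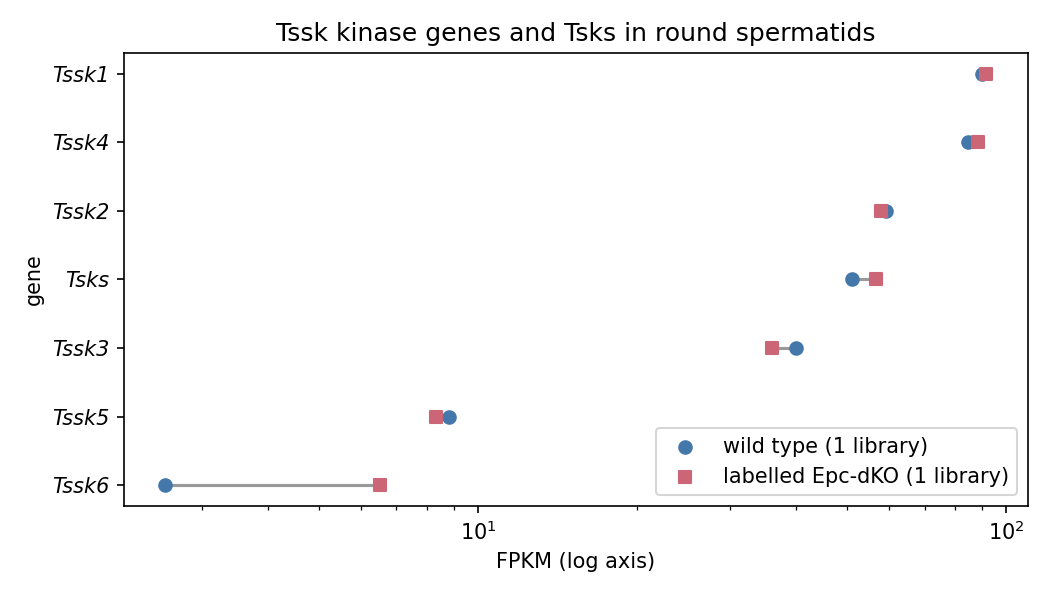
FPKM (log axis) of each gene in the wild-type library (circles) and the library labelled Epc-dKO (squares), 1 library each, joined by a line. The 2 symbols nearly coincide for 6 genes, and only Tssk6, at 2.55 and 6.51, shows a wide gap.

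Tssk6 was the only one of the 7 genes to pass the 2-fold rule. It rose from 2.55 FPKM in wild type to 6.51 in the library labelled Epc-dKO. The second value is 2.55 times the first, and the log2 ratio was 1.08. The call is lost where a mean FPKM of 5 is required, since the mean of Tssk6 is 4.53, and under a 4-fold rule. It remained the lowest of the 7 in both libraries. Tssk1 exceeded it 35.3-fold in wild type and 14.1-fold in the other, and Tssk5, the next gene up, 3.46-fold and 1.28-fold. In the ranking of all genes, 67.7% lay below Tssk6 in wild type against 80.3% in the library labelled Epc-dKO. The order of the 7 genes by FPKM, from Tssk1 through Tssk4, Tssk2, Tsks, Tssk3 and Tssk5 to Tssk6, was the same in both libraries. Without replicates it cannot be said which neighbours in this order differ beyond their spread.

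Of the 7 genes 1 rose and 0 fell. Over all 10438 expressed genes, 2.75% were at least 2-fold higher and 1.88% at least 2-fold lower, and 241 had a log2 ratio at or above that of Tssk6. The share of higher genes was 2.48% among 6888 genes with a mean FPKM of 1 to 10, the range that holds Tssk6, and 7.02% among the 1025 of these whose longest transcript is 1500 nt or less, as the 1335 nt transcript of Tssk6 is. These splits by level and length were chosen after the values were seen. The other 6 genes lay between -0.15 and 0.15. By comparison, 28.3% of all expressed genes differed as little, and the median absolute log2 ratio over all of them was 0.29. Most of those genes have a mean FPKM of 1 to 10, and no share was taken over genes matched in level to these 6. The median of the 7 genes was 0.02 and that of all expressed genes -0.05.

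**Figure D2:**
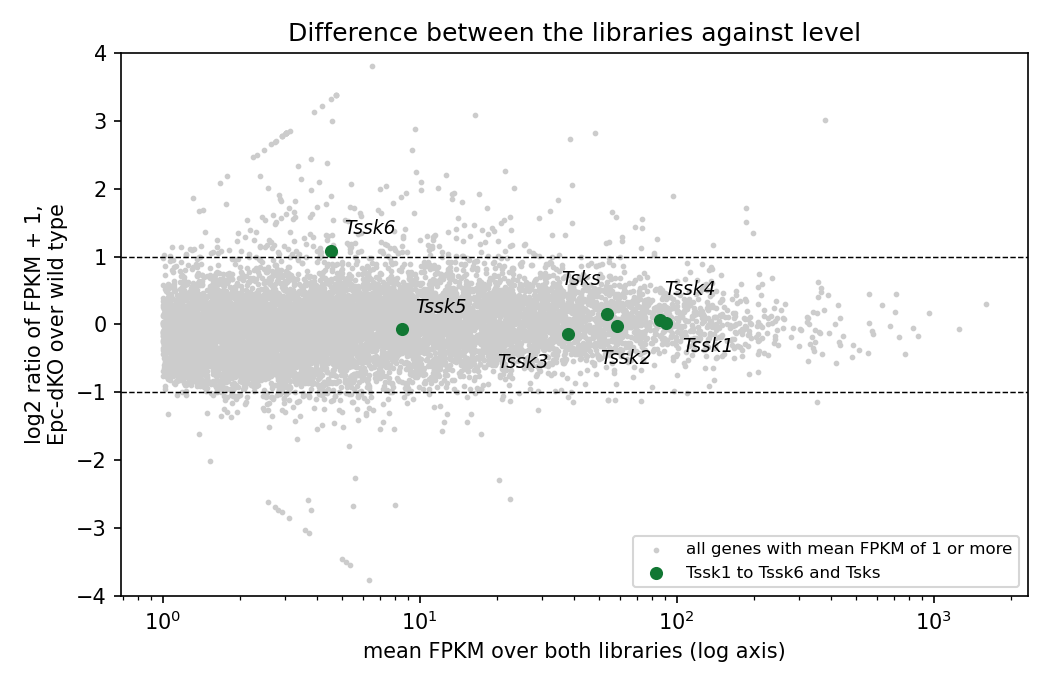
Log2 ratio of FPKM + 1 (library labelled Epc-dKO over wild type) against mean FPKM (log axis) for all 10438 expressed genes (grey) and the 7 genes (green), with dashed lines at 2-fold. Tssk6 lies just above the upper line at 1.08, the other 6 lie near 0, and 67 grey points fall outside the vertical range shown.

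Several measured facts stand beside the value of Tssk6. Its single exon overlaps exons of Ndufa13, a gene of respiratory complex I on the opposite strand, over 375 of 1335 bases (28.1%) in GENCODE M21, and 26.2% of the 50-base stretches of its coding sequence occur in Ndufa13 transcripts. The strand setting of the authors' quantification is not given, so reads of the pair may not have been told apart. Ndufa13 itself had an FPKM of 1.76 in wild type against 1.75 in the library labelled Epc-dKO, with -0.00 as its log2 ratio. Yjefn3, also on the opposite strand, overlaps 15 bases of Tssk6 and was not analysed here.

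Most genes listed as markers of elongating spermatids, the stage after round spermatids, rose in the same library as Tssk6. Of 7 markers, 5 rose (Prm1, Prm2, Tnp1, Tnp2 and Akap4) and 0 fell, where 2.75% of all expressed genes were higher and 1.88% lower. All 7 had a log2 ratio above 0, with a median of 1.84. Their sum was 570 FPKM in wild type against 1714 in the other library. Prm2, for protamine 2, which packs sperm DNA, had 82.8 and 675, and the transition protein gene Tnp2 had 40.5 and 153. None of the 7 markers was at 0 in either library, and in wild type Odf1 had 180 FPKM and Smcp had 157. Whether the RNA of these markers came from round or from elongating spermatids was not tested. In bulk RNA, more cells of a type and more RNA per cell cannot be told apart, and the part of these markers in the value of Tssk6 was not tested. Tssk1, Tssk2, Tssk3, Tssk4, Tssk5 and Tsks stayed within 2-fold in the same libraries. The 6 round spermatid markers had a median of -0.01, and ranged from -0.64 for Spaca3 (12.1 and 7.41) to 0.16 for Acr. Spermatocyte markers, for the meiotic cells before the spermatid, had 5 expressed members, of which 0 passed the rule, and a median of -0.24. Spermatogonial markers had 7 expressed members, of which 1, Dmrt1, fell, and a median of -0.75. Leydig markers had 5 expressed members, of which 1, the hormone gene Insl3, fell from 14.9 to 6.79 (-1.03), and a median of -0.03. A count of 1 in a list this short says little beside the 1.88% lower over all expressed genes.

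**Figure D3:**
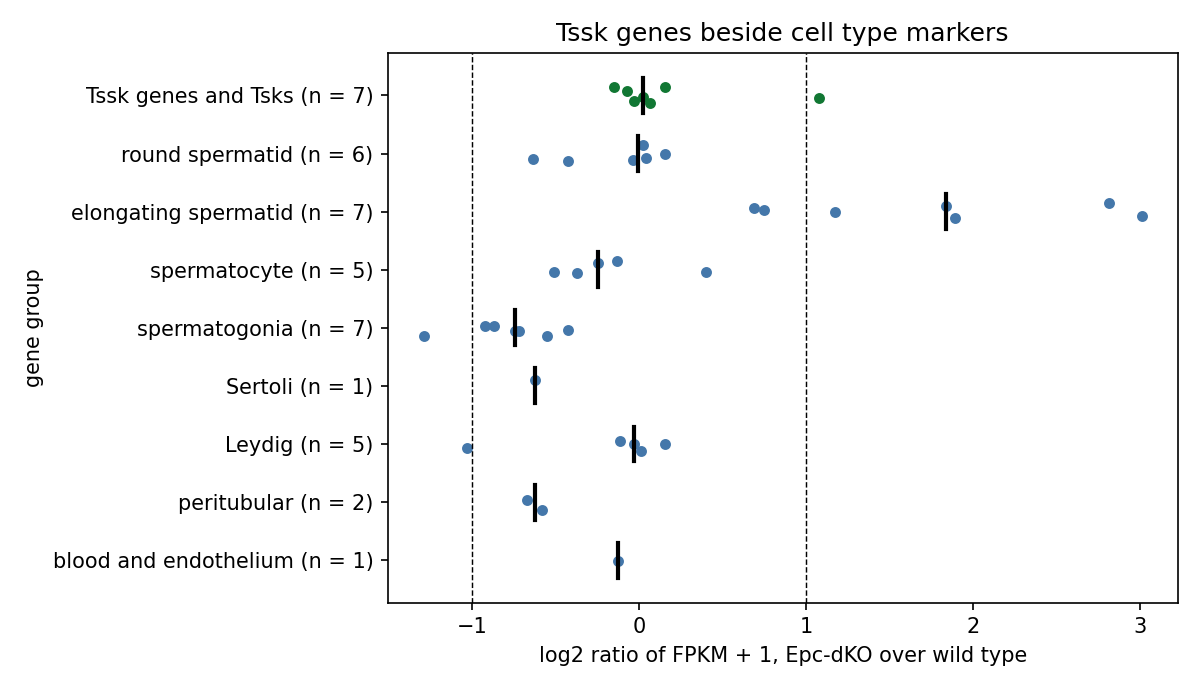
Log2 ratio of FPKM + 1 (library labelled Epc-dKO over wild type) for each expressed gene (points) of the Tssk group and of each marker list, with medians as bars and dashed lines at 2-fold. The elongating spermatid markers lie at 0.69 to 3.01. Tssk6 lies at 1.08 and the other 6 genes of the Tssk group lie near 0.

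Genes of known TSSK partners, activators and substrates formed a list of 12 genes, all expressed. None rose or fell (0 of 12), and their median log2 ratio was 0.09. With 2.75% of all expressed genes higher and 1.88% lower, a count of 0 in a list of this size is near the background and says nothing particular of it. The most abundant was Odf2, the outer dense fibre gene, at an FPKM of 904 in wild type against 1014 in the library labelled Epc-dKO (log2 ratio 0.17). The chaperone genes came next, with Hspa2, for a testis HSP70, at 579 and 447 (-0.37), and Hsp90aa1, for an HSP90 on which several TSSKs depend, at 412 and 415 (0.01). The remaining values named for this list were chosen after they were seen. Tsacc, listed in the table under its older symbol 1700021C14Rik, encodes a co-chaperone that activates TSSK6, and had 10.2 and 19.5, a log2 ratio of 0.87. Pdpk1, for a kinase that phosphorylates TSSK3, had 14.8 and 26.9 (0.81), and the transcription factor gene Crem had 14.6 and 24.5 (0.71). Lower values belonged to the chaperone gene Hspa8, at 47.7 and 27.1 (-0.79), and Cdc37, for a kinase co-chaperone, at 28.4 and 16.3 (-0.77). Ppp1cc, for the phosphatase that binds TSKS, had 159 and 178 (0.16). The 12 ratios ranged from -0.79 to 0.87.

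Related kinases are given next, and their counts too lie near the shares over all genes (2.75% higher and 1.88% lower). Of 32 listed AMPK-related and calmodulin-dependent kinase genes, 18 were expressed, 0 rose and 0 fell, and the median was 0.11. Stk33 was highest, at an FPKM of 70.7 in wild type against 74.7 in the library labelled Epc-dKO (0.08), then Stk11, which encodes the upstream kinase LKB1, at 63.6 and 62.3 (-0.03), and Sik3 at 24.4 and 29.8 (0.28). The list of 28 other kinases of spermatids had 24 expressed genes and a median of 0.12. Of these, 0 rose and 1 fell. Nek2, for a centrosomal kinase, fell from 148 to 72.4 (-1.02). The call of Nek2 is lost when the libraries are scaled to a median ratio of 1 or to their upper quartile. Csnk1g2, for a casein kinase, had 97.1 and 126 (0.37), and Plk1, a mitotic and meiotic kinase gene, had 105 and 87.1 (-0.27). Among the 42 expressed genes of these 2 kinase lists, 3 stood above Tssk1 in wild type against 1 in the library labelled Epc-dKO. Above Tssk6 stood 34 of them in wild type and 28 in the other library.

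Genes of the chromatoid body, where TSKS is found, and of the annulus, a septin ring of the sperm tail, were listed together as 15 genes. Of these 13 were expressed, 0 rose, 0 fell, and the median was 0.17, against -0.05 over all expressed genes. This count, too, is near the background of 2.75% higher and 1.88% lower. Tdrd6, a scaffold gene of the chromatoid body, had an FPKM of 259 in wild type against 223 in the library labelled Epc-dKO (-0.22), and Mael, for a protein of germ granules, had 211 and 210 (-0.01). The annulus gene Septin12, given as Sept12, had 133 and 137 (0.04).

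**Figure D4:**
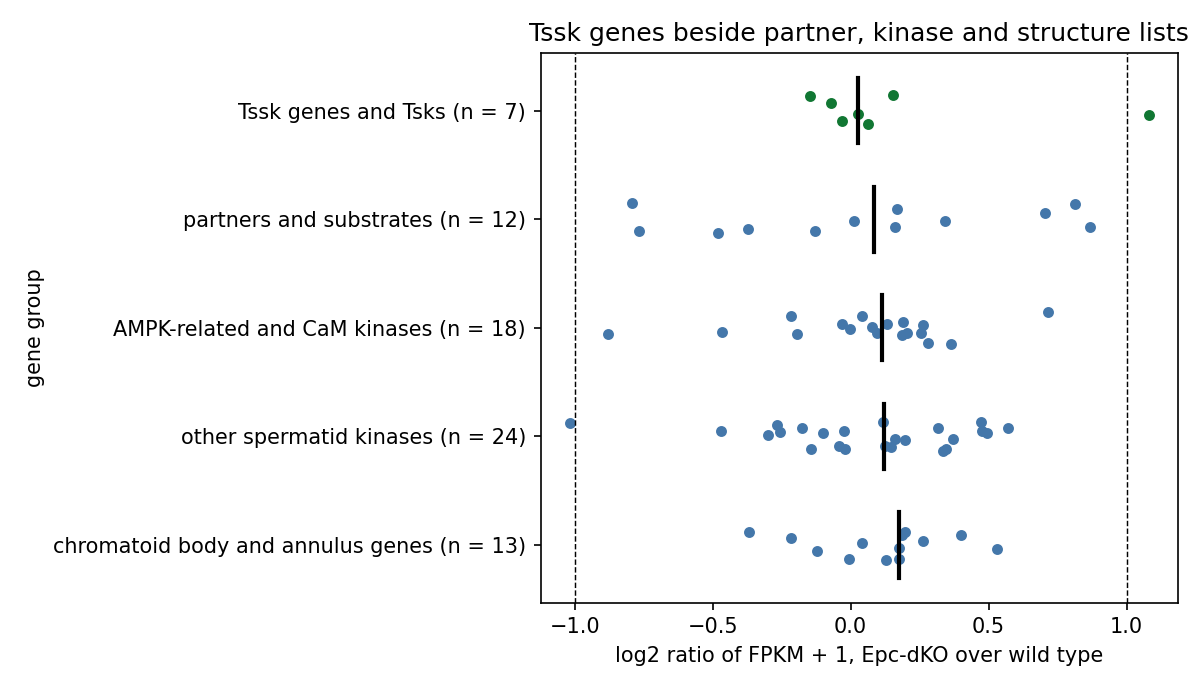
Log2 ratio of FPKM + 1 (library labelled Epc-dKO over wild type) for each expressed gene (points) of the Tssk group and of the lists of partners, kinases and chromatoid body or annulus genes, with medians as bars and dashed lines at 2-fold. All 4 list medians lie between 0.09 and 0.17, and beyond 2-fold lie only Tssk6 at 1.08 and Nek2 at -1.02.

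The genes with the most similar levels were found by the distance between log2(FPKM + 1) values over the 2 libraries, which says nothing of shared function or control. Near Tssk1 lay Hsp90b1, for an HSP90 of the endoplasmic reticulum, with an FPKM of 89.5 in wild type against 91.7 in the library labelled Epc-dKO. Nearest to Tssk6 were Cap2, with 2.44 and 6.79, and Adam4, a sperm surface metalloprotease family gene, with 2.70 and 6.71.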

How the data were processed

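Expression values were deposited by the authors as FPKM per gene, as a single table of both libraries. The submitters' processing notes name Cufflinks 2.2.1 and mm9, and the aligner, annotation and strand setting were not given in the sources used here. Of 23235 rows, 1 held library codes and was left out. Libraries were grouped by genotype label. Log2 ratios used a pseudocount of 1, and genes whose mean FPKM reached 1 were counted at 2-fold. No test between single libraries is possible. Members and lists were chosen with earlier results of these data known. Named genes are the members, Epc1, Epc2, in each list the genes past 2-fold and the 3 most abundant, and the 2 genes nearest in level to the most abundant and to the most changed member, of which 1 is not reported here. Tsacc, Pdpk1, Crem, Hspa8, Cdc37 and Ppp1cc fall outside this rule, and they and the named markers were chosen after their values were seen. Of 87 list symbols, 85 matched, older symbols included, and of 44 marker symbols 43. Transcript models came from GENCODE M21 (GRCm38), which gave a length for 89.2% of expressed genes. Protein sequences were not used here, so identity was computed on coding sequences. The ratio and the counts were tested on simulated data. Alternatives covered pseudocount, minimum FPKM, library scaling and the fold rule. Python 3.11.15, NumPy 2.4.6, pandas 2.3.3, Biopython 1.88 and Matplotlib 3.10.9 were used.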

Additional observations from a re-analysis of the deposited data

How the results depend on the processing

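Tssk6 kept a log2 ratio of 1.06 to 1.32 over the 7 alternatives that gave one, and the other 6 genes stayed within 2-fold, though the small ratios of Tssk1 (-0.01 to 0.08) and Tssk2 (-0.06 to 0.02) changed sign with scaling. For Tssk6, leaving out the minimum cannot change the ratio and a smaller pseudocount can only enlarge it. Scaling to a median ratio of 1, to the upper quartile and to the sum without the 100 highest genes gave it 1.13, 1.11 and 1.06. With a minimum mean FPKM of 5, which leaves Tssk6 out, and under the 4-fold rule, the members counted as higher were 0. Higher and lower genes overall numbered 433 and 652 with a pseudocount of 0.1, 166 and 105 with a minimum of 5, 545 and 1054 on the TPM scale, 837 and 1127 under a 1.5-fold rule, and 76 and 59 under a 4-fold rule; 364 were lower with a pseudocount of 0.5. Higher genes made up 59.4% of those called, 39.9% with a pseudocount of 0.1, 48.7% with 0.5, 34.1% on the TPM scale and 42.6% under the 1.5-fold rule. Partners and substrates had 3 higher and 2 lower under the 1.5-fold rule. AMPK-related and calmodulin-dependent kinases had 1 higher and 1 lower on the TPM scale and under the 1.5-fold rule, 1 lower with a pseudocount of 0.1 or 0.5, and medians of 0.00587 without a minimum and 0.228 with a minimum of 5. Nek2 was past 2-fold by little: other spermatid kinases had 0 lower at a median ratio of 1, on the upper quartile and under the 4-fold rule, and medians of -0.019 without a minimum and 0.019 on the TPM scale. Where a rule or minimum changed the genes counted, that is the cause. The TPM scale enlarges the values of both libraries while the minimum and the pseudocount stay at 1, so 15151 genes were counted there against 10438. A smaller pseudocount can only enlarge the size of a ratio, so the counts at 0.1 and 0.5 could only grow. For the other scalings the cause was not tested. No paired analysis was possible because there is only 1 library of either genotype. Read depth is unknown, which limits statements on low genes such as Tssk6.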
